A study of Mus musculus with 16 samples.

Results

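A set of 10 genes of the NF-κB pathway, Nfkbia, Tnfaip3, Nfkbid, Zc3h12a, Traf1, Birc3, Relb, Nfkb2, Ccl2 and Icam1, was followed in differentiating mouse embryonic stem cells treated with a hawthorn extract or a fraction of it. Members were chosen by name, with earlier results of these data known. They make up 10 of the 27659 genes with a symbol on the array and 18 of its 60273 gene probes. Of the 18 probes, 8 carry the symbol in the array files. The other 10, which include every probe of Nfkbia, Tnfaip3, Traf1, Nfkb2 and Ccl2, carry a RefSeq accession and were named through it.

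The cells were CGR8-Myh6-GFP mESCs, a mouse embryonic stem cell line with a GFP reporter for the cardiac myosin gene Myh6, left to differentiate in multiwell plates. From day 4 they received the vehicle DMSO, WS1442 at 0.25 mg/ml, which is a dry extract of hawthorn leaves and flowers, or MeOH eluate at 0.1 mg/ml, the methanol fraction of that extract. RNA was collected after 6 h or 24 h, from 2 samples per DMSO group and 3 samples per treated group, which gives 16 samples in 6 groups. Single-colour arrays were used, with 1 array for each sample. All groups share the cell line, the reporter and the day on which treatment began. The labels do not say whether the samples of a group were separate cultures, so p-values measure only the spread between these samples. The arrays of a time point lay on 1 slide, so levels were not compared between 6 h and 24 h, only differences from DMSO of the same slide.

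NF-κB is a family of transcription factors that are held in the cytoplasm by inhibitor proteins until a receptor for a cytokine, a microbial product or a stress signal activates the kinases that release them. Among the genes they switch on are their own inhibitors, so that a response is followed by a brake. Other targets are chemokines and adhesion molecules, which bring leukocytes to a tissue. Transcripts of such feedback and target genes are therefore often read as a record of recent NF-κB activity, although other factors act on the same genes.

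A total of 4 members had the κB consensus, the 10-base sequence to which NF-κB dimers bind, in a window from 250 bases before to 50 bases after a start site. Promoters of 8 members were in the RefSeq table of build GRCm38.p6, and the search covered both strands. The share among all 27025 genes of that table was 5.14%, and among its 32851 promoters 4.51%. Matches were present in 1 of 1 promoters of Nfkbia, 1 of 2 of Tnfaip3, 1 of 3 of Nfkbid and 3 of 3 of Nfkb2. None was found in these windows for Zc3h12a, Traf1, Birc3 or Icam1. The windows below show the letters searched for in the inhibitor genes and in a subunit gene, with the match in capitals and 10 bases on each side, 5′ to 3′ along the gene.
Nfkbia, chr12:55492657-55492686, minus strand: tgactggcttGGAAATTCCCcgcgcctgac
Tnfaip3, chr10:19015516-19015545, minus strand: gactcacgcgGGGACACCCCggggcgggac
Nfkbid, first match, chr7:30422170-30422199, plus strand: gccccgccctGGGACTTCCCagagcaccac
Nfkbid, second match, chr7:30422215-30422244, plus strand: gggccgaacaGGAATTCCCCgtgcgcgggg
Nfkb2, chr19:46304688-46304717, plus strand: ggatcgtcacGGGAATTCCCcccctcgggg
The Nfkb2 match reads as the consensus on both strands and overlaps a further match that starts 1 base downstream. The matches began 29 bases before the start of Nfkbia, 125 before that of Tnfaip3, 226 and 181 before that of Nfkbid and 39 before that of Nfkb2. A second Tnfaip3 match began 12 bases before the start, and Nfkb2 had 6 match positions over its 3 promoters, so the windows are not a full list. A match is a description of the sequence, and binding was not measured here.

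After 6 h with MeOH eluate 7 of the 10 genes rose and none fell, at a Benjamini-Hochberg adjusted p-value under 0.05 in limma, against 8.4% of all 30963 genes tested that rose. With WS1442 for 6 h 3 of 10 rose, against 3.95% of all genes. After 24 h 5 of 10 rose with WS1442, against 12.4% of 30971 genes, and 4 of 10 with MeOH eluate, against 9.35% of 30969. None fell in any of these comparisons, while 1.36%, 8.53%, 12.1% and 8.51% of all genes fell, in the order WS1442 at 6 h, MeOH eluate at 6 h, WS1442 at 24 h and MeOH eluate at 24 h. The median log2 difference of the 10 genes was 0.37 with WS1442 and 0.79 with MeOH eluate at 6 h, and 0.41 and 0.22 at 24 h. Over all genes it was -0.01, 0, 0.04 and 0.01. The treated groups of a time point share their DMSO samples, so these counts are not independent of each other. Traf1, Nfkbid and Zc3h12a are among the genes labelled in a heat map of the study, drawn from these same samples at 24 h, and are no independent evidence of a direction. All 10 genes were chosen with earlier results of these data known, so their counts are a description and no independent evidence either.

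**Figure D1:**
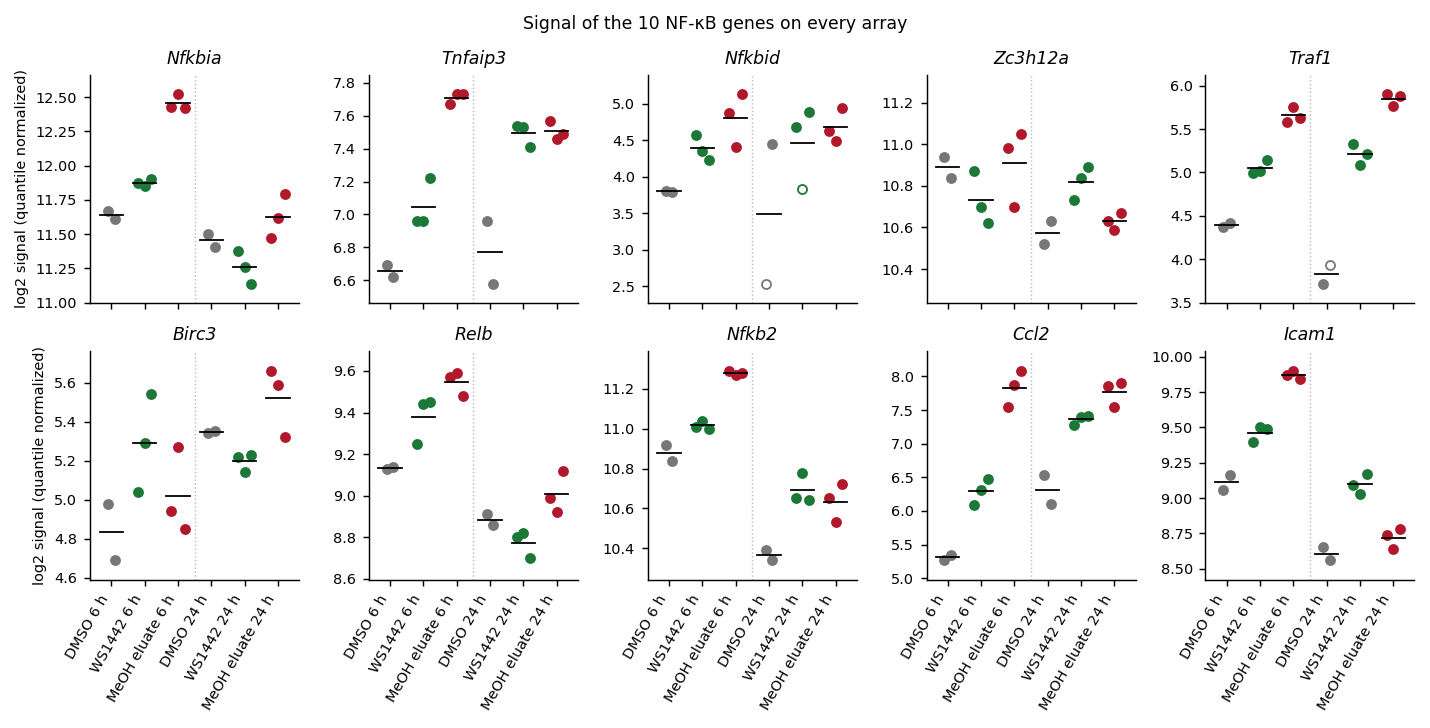
Log2 signal after quantile normalization (vertical axis, a separate scale for each gene) of the brightest kept probe of each gene, in the 6 groups of samples (horizontal axis). Points are arrays, open where the probe was not well above background, bars are group means, and the dotted line separates the slides of 6 h and 24 h. All 3 MeOH eluate samples of 6 h lie above both DMSO samples for 8 of the 10 genes, Zc3h12a and Birc3 being the exceptions.

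Signals are given as log2 of the array's brightness after quantile normalization, and a difference of 1 is a doubling. Ccl2 encodes a chemokine that attracts monocytes and had the largest rise of the 10 genes at 6 h. Its log2 signal at 6 h was 5.27 and 5.35 with DMSO, 6.09, 6.31 and 6.48 with WS1442, and 7.55, 7.87 and 8.08 with MeOH eluate. The groups did not overlap and were ordered DMSO, WS1442, MeOH eluate. The log2 difference from DMSO was 0.98 ± 0.17 (SE) for WS1442, 1.97-fold, with an adjusted p of 0.00522, and 2.52 ± 0.17 for MeOH eluate, 5.74-fold, with an adjusted p of 2.64e-07. At 24 h the signal was 6.53 and 6.10 with DMSO, 7.28, 7.40 and 7.41 with WS1442, and 7.85, 7.54 and 7.90 with MeOH eluate. Both treatments again lay above both DMSO samples. The differences at 24 h were 1.05 ± 0.17 with WS1442 (adjusted p of 0.000494) and 1.45 ± 0.17 with MeOH eluate (adjusted p of 3.03e-05).

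Icam1 encodes an adhesion molecule to which leukocytes bind, and at its first probe it was the only member for which the difference between the treatments passed with opposite signs at 6 h and 24 h. At 6 h the log2 signal was 9.06 and 9.16 with DMSO, 9.40, 9.50 and 9.49 with WS1442, and 9.87, 9.90 and 9.84 with MeOH eluate, without overlap. It had risen by 0.36 ± 0.07 with WS1442 (adjusted p of 0.00758) and by 0.76 ± 0.07 with MeOH eluate (adjusted p of 3.1e-06). At 24 h it was 8.65 and 8.56 with DMSO, 9.09, 9.03 and 9.17 with WS1442, and 8.74, 8.64 and 8.78 with MeOH eluate. At that time WS1442 stood apart from DMSO, and MeOH eluate overlapped with it. The difference was 0.49 ± 0.07 with WS1442 (adjusted p of 0.000138) and 0.11 ± 0.07 with MeOH eluate (adjusted p of 0.298, 95% interval -0.03 to 0.25).

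Traf1, an adaptor that binds TNF receptors and other TRAF proteins, rose in all 4 comparisons. Its log2 signal at 6 h was 4.37 and 4.42 with DMSO, 4.99, 5.02 and 5.14 with WS1442, and 5.58, 5.76 and 5.63 with MeOH eluate. At 24 h it was 3.72 and 3.93 with DMSO, 5.33, 5.09 and 5.21 with WS1442, and 5.90, 5.77 and 5.88 with MeOH eluate. No treated sample overlapped with DMSO, and at each time point MeOH eluate lay above WS1442. The differences at 6 h were 0.66 ± 0.14 with WS1442 (adjusted p of 0.0176) and 1.26 ± 0.14 with MeOH eluate (adjusted p of 3.55e-05). At 24 h they were 1.39 ± 0.14, or 2.61-fold (adjusted p of 2.5e-05), and 2.03 ± 0.14, or 4.07-fold (adjusted p of 3.55e-07). Traf1 was dim, and DMSO 24 h replicate 2 was not well above background. Under a normexp background correction, which adds an offset of 50 to every signal, the 4 differences of Traf1 shrank to 0.22, 0.47, 0.41 and 0.69 and those of Ccl2 to 0.49, 1.55, 0.64 and 0.94. All 8 kept an adjusted p under 0.05 there.

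Birc3, a ubiquitin ligase that works with TRAF proteins at TNF receptors, passed the test in none of the 4 comparisons. The log2 differences of its brightest probe were 0.45 and 0.19 at 6 h and -0.15 and 0.18 at 24 h, WS1442 first, each with an SE of 0.18, and adjusted p-values lay between 0.175 and 0.608.

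Among the inhibitors, Nfkbia and Tnfaip3 rose with MeOH eluate at 6 h. Nfkbia encodes IκBα, which binds NF-κB and keeps it out of the nucleus. Its log2 signal at 6 h was 11.67 and 11.61 with DMSO, 11.87, 11.85 and 11.90 with WS1442, and 12.43, 12.52 and 12.42 with MeOH eluate. The groups did not overlap, with MeOH eluate the highest. The difference was 0.82 ± 0.08 with MeOH eluate (adjusted p of 1.04e-05) and 0.23 ± 0.08 with WS1442 (adjusted p of 0.115). At 24 h the signal was 11.50 and 11.41 with DMSO, 11.38, 11.26 and 11.14 with WS1442, and 11.47, 11.62 and 11.79 with MeOH eluate. All WS1442 samples now lay below DMSO, but neither the difference of -0.20 ± 0.08 nor that of 0.17 ± 0.08 with MeOH eluate passed the test (adjusted p of 0.0945 and 0.177).

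Tnfaip3 encodes a ubiquitin-editing enzyme that shuts down signalling from TNF and Toll-like receptors. At 6 h its log2 signal was 6.69 and 6.62 with DMSO, 6.96, 6.96 and 7.22 with WS1442, and 7.67, 7.73 and 7.73 with MeOH eluate. At 24 h it was 6.96 and 6.58 with DMSO, 7.54, 7.53 and 7.41 with WS1442, and 7.57, 7.46 and 7.49 with MeOH eluate. Every treated group lay above its DMSO samples, with WS1442 at 6 h the closest to them. The rise was 1.05 ± 0.11 with MeOH eluate at 6 h (adjusted p of 2e-05), 0.73 ± 0.11 with WS1442 at 24 h (adjusted p of 0.000361) and 0.74 ± 0.11 with MeOH eluate at 24 h (adjusted p of 0.000285). With WS1442 at 6 h the difference was 0.39 ± 0.11 with an adjusted p of 0.0595.

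Nfkbid and Zc3h12a did not pass the test in any comparison. Nfkbid encodes a nuclear IκB protein that modulates transcription. It was dim, well above background on 14 of 16 arrays, and at 24 h its DMSO samples were far apart, at 2.54 (not well above background) and 4.45. Its log2 differences were 0.58, 1.00, 0.98 and 1.19, each with an SE of 0.44, and the adjusted p-values were 0.528, 0.138, 0.124 and 0.0773. The differences at 24 h were 0.02 with WS1442 and 0.24 with MeOH eluate without DMSO 24 h replicate 1, and were 1.93 and 2.15 without replicate 2, where both passed (adjusted p of 0.00294 and 0.00151). Zc3h12a encodes an RNase that degrades mRNAs of inflammatory genes, and its signal was far above background, between 10.52 and 11.05 on all 16 arrays. Its differences were -0.16, 0.02, 0.25 and 0.06, each with an SE of 0.09, and none exceeded 0.45 at the upper end of its 95% interval.

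Of the subunit genes, Nfkb2 encodes the precursor of the NF-κB subunit that pairs with RelB in the non-canonical pathway. Its log2 signal at 6 h was 10.92 and 10.84 with DMSO, 11.01, 11.04 and 11.00 with WS1442, and 11.29, 11.27 and 11.28 with MeOH eluate. At 24 h it was 10.39 and 10.34 with DMSO, 10.65, 10.78 and 10.64 with WS1442, and 10.65, 10.53 and 10.72 with MeOH eluate. Treated samples lay above DMSO in every comparison. The rise was 0.40 with MeOH eluate at 6 h, 0.33 with WS1442 at 24 h and 0.27 with MeOH eluate at 24 h, each ± 0.06 (adjusted p of 0.000353, 0.00109 and 0.00477). With WS1442 at 6 h the difference was 0.14 ± 0.06 (adjusted p of 0.211).

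Relb encodes RelB itself. At 6 h its log2 signal was 9.13 and 9.14 with DMSO, 9.25, 9.44 and 9.45 with WS1442, and 9.57, 9.59 and 9.48 with MeOH eluate, with all treated samples above DMSO. It had risen by 0.41 ± 0.08 with MeOH eluate (adjusted p of 0.00206), and the difference with WS1442 was 0.25 ± 0.08 (adjusted p of 0.0763). At 24 h WS1442 differed from DMSO by -0.11 ± 0.08 and MeOH eluate by 0.12 ± 0.08, and neither passed (adjusted p of 0.326 and 0.317).

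**Figure D2:**
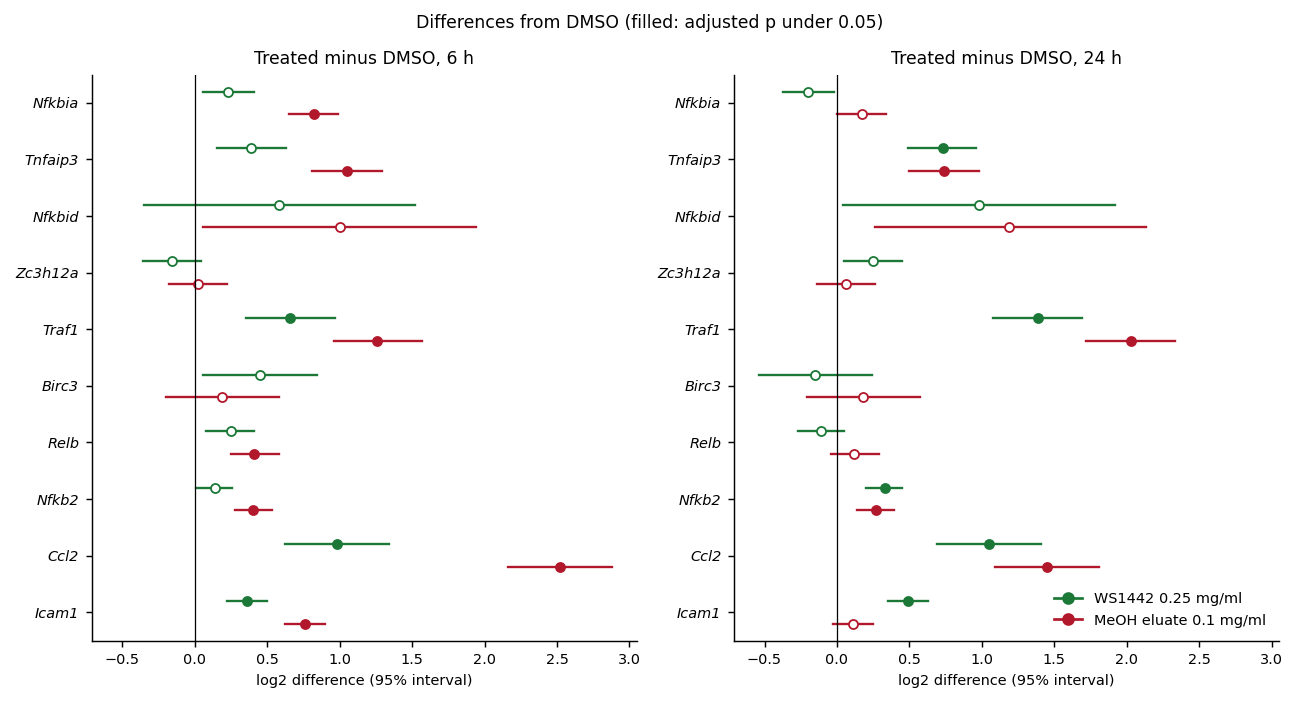
Log2 difference from DMSO (horizontal axis) with its 95% interval for each gene (vertical axis), at 6 h (left) and 24 h (right), for WS1442 and MeOH eluate. Filled points had an adjusted p under 0.05 in limma. Ccl2 with MeOH eluate at 6 h, at 2.52, and Traf1 with MeOH eluate at 24 h, at 2.03, lie farthest to the right.

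At the limits of the study, a change of more than 2-fold and an unadjusted p under 0.05, here with p-values from limma, 0 of the 10 genes passed with WS1442 at 6 h, 4 with MeOH eluate at 6 h, 2 with WS1442 at 24 h and 3 with MeOH eluate at 24 h. Of all genes, 0.436%, 2.1%, 2.03% and 2.93% passed them. Ccl2 and Traf1 passed in each comparison except WS1442 at 6 h, Nfkbid passed with MeOH eluate at each time point, at 24 h with the spread of its DMSO samples given above, and Tnfaip3 with MeOH eluate at 6 h. With p-values from the methods' t-test 0, 4, 2 and 2 of the 10 genes passed these limits, and 58, 484, 271 and 447 of all genes. Groups that did not overlap were common over all genes. With WS1442 at 6 h 9 of the 10 genes lay above DMSO in all samples, against 19.8% of all genes, and with MeOH eluate at 6 h 8 of 10, against 25%. At 24 h 6 of 10 lay above DMSO with WS1442, against 27.1%, and 6 of 10 with MeOH eluate, against 21.7%. Another 3 of the 10, Nfkbia, Birc3 and Relb, lay below DMSO in all samples with WS1442 at 24 h, and none did in the other comparisons with DMSO. The share of all genes that lay below was not reported, so the count of 3 cannot be read as a result about these genes.

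The rises with WS1442 at 6 h depended on single samples. Without DMSO 6 h replicate 1, 0 of the 10 genes passed, and the adjusted p-values were 0.173 for Traf1, 0.0753 for Ccl2 and 0.132 for Icam1, with log2 differences of 0.63, 0.94 and 0.31. Without DMSO 6 h replicate 2 or WS1442 6 h replicate 3, Traf1 did not pass (adjusted p of 0.058 and 0.0696), nor did it in the fit of the time point alone or with the replicate number as a block (adjusted p of 0.0662 and 0.0501). Without WS1442 6 h replicate 1, 5 genes passed, the further 2 being Tnfaip3 and Relb.

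MeOH eluate and WS1442 were compared directly at each time point, at the doses used, which differ. At 6 h 6 of the 10 genes were higher with MeOH eluate, against 4.62% of 30971 genes, and none was lower, against 7.55%. The log2 difference was 1.54 ± 0.15 for Ccl2 (adjusted p of 3.44e-05), 0.66 ± 0.10 for Tnfaip3 (adjusted p of 0.00115), 0.60 ± 0.13 for Traf1 (adjusted p of 0.00951) and 0.59 ± 0.07 for Nfkbia (adjusted p of 0.000253). It was 0.40 ± 0.06 for Icam1 and 0.27 ± 0.05 for Nfkb2 (adjusted p of 0.000916 and 0.00642). With arrays scaled to their 75th percentile the difference of Nfkb2 was 0.16 and did not pass (adjusted p of 0.0626). With normexp correction that of Traf1 was 0.25 at 6 h and 0.28 at 24 h, and each passed.

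At 24 h 3 of the 10 genes were higher with MeOH eluate than with WS1442, against 7.45% of 30970 genes, and 1 was lower, against 6.97%. Traf1 was higher by 0.64 ± 0.13 (adjusted p of 0.0045), Nfkbia by 0.37 ± 0.07 (adjusted p of 0.0041) and Relb by 0.23 ± 0.07 (adjusted p of 0.0324). Icam1 was lower by a log2 difference of -0.38 ± 0.06 (adjusted p of 0.000926). Tnfaip3 differed by 0.01, with a 95% interval from -0.20 to 0.23, and Ccl2 by 0.40, with an interval from 0.08 to 0.72 (adjusted p of 0.963 and 0.0949). The call for Relb was lost when WS1442 24 h replicate 2 or 3 or MeOH eluate 24 h replicate 1 or 3 was left out (adjusted p of 0.053, 0.142, 0.0603 and 0.15), with the replicate number as a block (adjusted p of 0.0548), and when its probes were averaged (0.13, adjusted p of 0.366). For Icam1 the average over its probes was -0.23 (adjusted p of 0.0203).

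The effect of each treatment at 24 h was then set against its effect at 6 h, as a difference of differences from DMSO. For MeOH eluate 3 of the 10 genes had a lower value at 24 h, against 3.69% of 30962 genes, and 1 a higher one, against 3.8%. The change was -1.07 ± 0.24 for Ccl2 (adjusted p of 0.0117), -0.65 ± 0.11 for Nfkbia (adjusted p of 0.00257), -0.65 ± 0.09 for Icam1 (adjusted p of 0.000497) and 0.76 ± 0.20 for Traf1 (adjusted p of 0.0327). For WS1442 2 genes had a lower value at 24 h, against 6.89% of 30963 genes, and 1 a higher one, against 5.53%. The change was -0.43 ± 0.11 for Nfkbia (adjusted p of 0.0258), -0.36 ± 0.11 for Relb (adjusted p of 0.0426) and 0.73 ± 0.20 for Traf1 (adjusted p of 0.0311). For Tnfaip3 and Nfkb2 the change with time did not pass for either treatment, with 95% intervals from 0.00 to 0.68 and -0.65 to 0.03 for Tnfaip3, and from 0.01 to 0.37 and -0.31 to 0.04 for Nfkb2. Time and slide cannot be told apart in these levels, but each effect was taken within its slide. The changes of Nfkbia and Icam1 with MeOH eluate passed whichever sample was left out. The other 5 did not pass without DMSO 24 h replicate 1, with adjusted p-values of 0.0667 for Ccl2 and 0.113 for Traf1 with MeOH eluate, and of 0.108 for Nfkbia, 0.138 for Relb and 0.116 for Traf1 with WS1442.

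**Figure D3:**
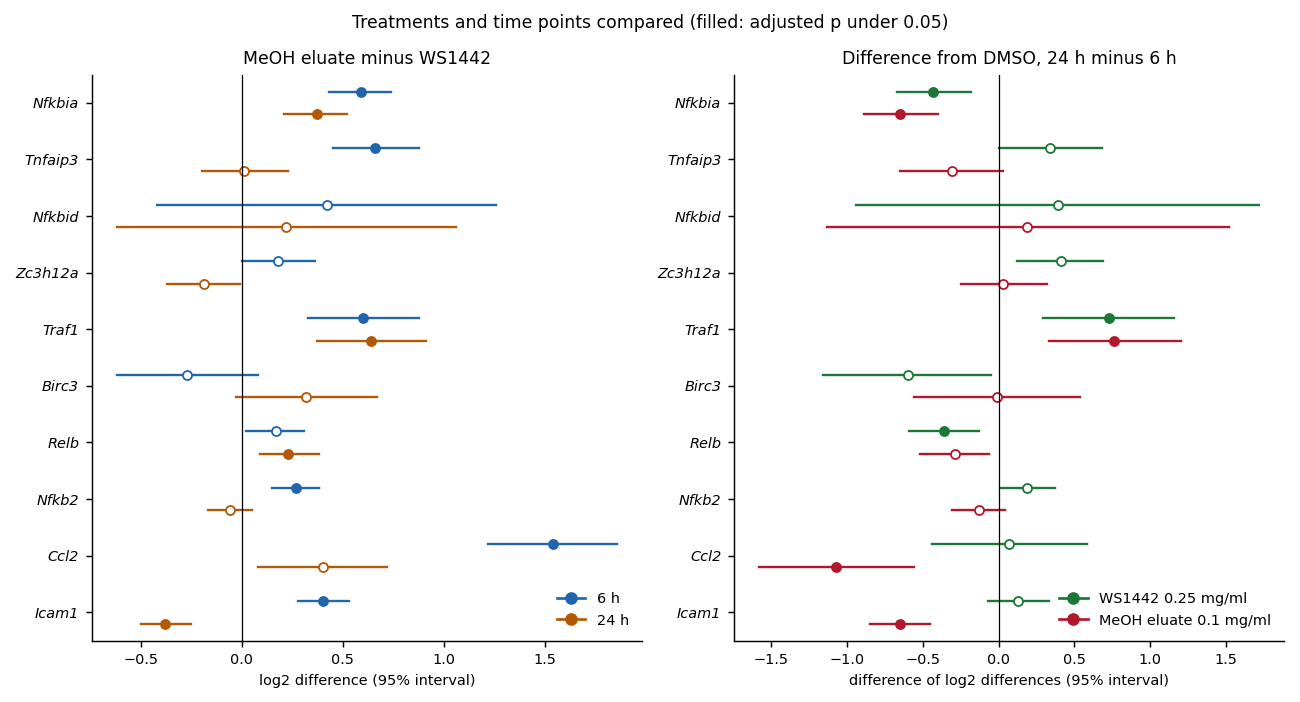
Left, log2 difference of MeOH eluate from WS1442 at 6 h and 24 h. Right, difference from DMSO at 24 h minus that at 6 h for each treatment. Points are estimates for each gene (vertical axis), lines 95% intervals, and filled points had an adjusted p under 0.05 in limma. Icam1 lies at 0.40 at 6 h and at -0.38 at 24 h on the left, and Traf1 is the only gene filled to the right of 0 on the right.

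Members with several probes allowed a check of the transcripts measured. Of the 18 probes 14 were kept, because all arrays of some group were well above background, and 4 were not. Of all kept probes 4.65%, 16.2%, 23.4% and 17.1% passed in the 4 comparisons with DMSO. The second probe of Nfkbid was well above background on 0 arrays and that of Zc3h12a on 1. For Icam1 the second probe rose by 0.31, 0.70 and 0.25 with WS1442 at 6 h, MeOH eluate at 6 h and WS1442 at 24 h, and each passed (adjusted p over all kept probes of 0.0398, 3.87e-05 and 0.0362). Its difference between MeOH eluate and WS1442 at 24 h was -0.08 (95% interval -0.23 to 0.08, adjusted p of 0.565), with the MeOH eluate samples all below the WS1442 samples, as with the first probe, but without passing the test. The second Relb probe rose by 0.37 with MeOH eluate at 6 h (adjusted p of 0.0233) and differed from DMSO by 0.31 with WS1442 at 6 h (adjusted p of 0.103), and the third passed in no comparison with DMSO. The second Birc3 probe differed from DMSO by -0.53, -0.60, -0.81 and -0.57, opposite in sign to the first probe in 3 of 4 comparisons, and did not pass in any. It was kept only through the DMSO groups, with 2 of 2 arrays well above background in each, against 1 of 3 in each treated group. Its differences are therefore no evidence that the 2 probes disagree. The first 30 bases of the Icam1 probes and of these Birc3 probes are shown in lower case as the array files give them.
Icam1, first probe: tgggagggtaagcaaccctcccagcacaga
Icam1, second probe: acacaggaaagctgagacattgtccccaac
Birc3, first probe: tttctctcctgaacaagactaatggtccat
Birc3, second probe: cagataatgcccagctaatagaacagggtc
The single probes of the genes with the largest changes began as follows.
Ccl2: aaggtgtggatccatttttccctctctgtg
Traf1: acattaatgtgaatttaacctgccctggac

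**Figure D4:**
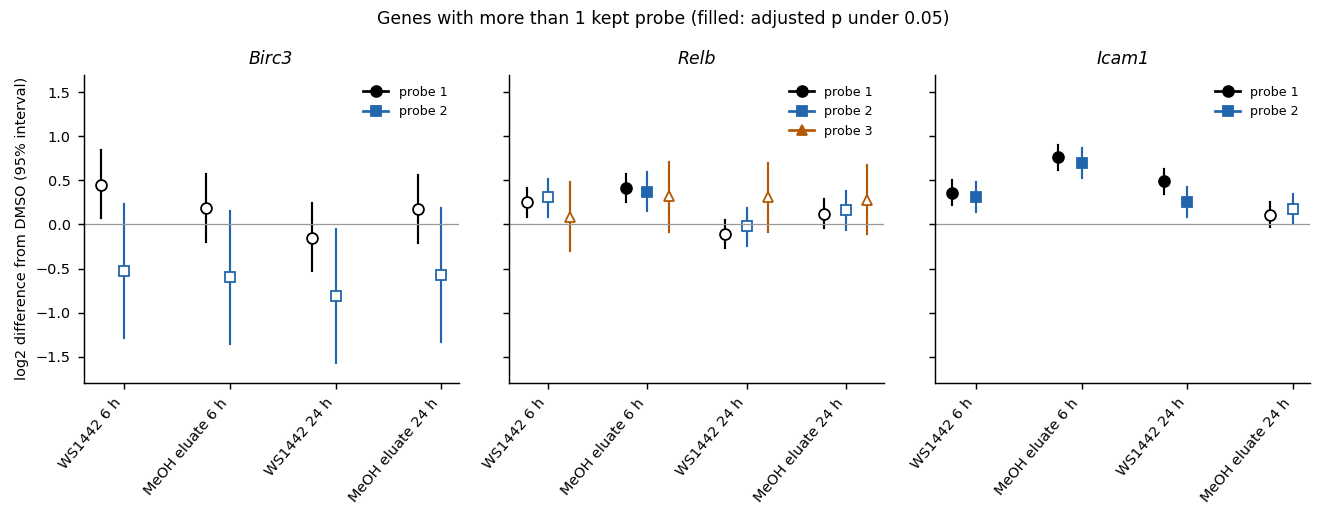
Log2 difference from DMSO with its 95% interval (vertical axis) in the 4 comparisons (horizontal axis) for each kept probe of Birc3, Relb and Icam1, filled where the adjusted p over all kept probes was under 0.05. The Icam1 probes lie on the same side of 0 in every comparison. The Birc3 probes lie apart, the second being well above background on 1 of 3 arrays of each treated group.

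A further 73 genes of the pathway were listed by role from general knowledge, also with earlier results of these data known. Of the 73 genes, 67 could be tested. Of these, 14 rose and 1 fell with WS1442 at 6 h, and 26 rose and 3 fell with MeOH eluate at 6 h. At 24 h 17 rose and 6 fell with WS1442, and 17 rose and 7 fell with MeOH eluate. Of all genes 3.95% rose and 1.36% fell with WS1442 at 6 h, 8.4% and 8.53% with MeOH eluate at 6 h, 12.4% and 12.1% with WS1442 at 24 h, and 9.35% and 8.51% with MeOH eluate at 24 h. The median log2 differences were 0.19, 0.16, 0.06 and 0.09. The count for WS1442 at 6 h, 15 in all, fell to 2 without DMSO 6 h replicate 1, to 8 without DMSO 6 h replicate 2 and to 6 without WS1442 6 h replicate 3. The count for MeOH eluate at 6 h fell from 29 to 16 without DMSO 6 h replicate 1, and that for WS1442 at 24 h from 23 to 15 without DMSO 24 h replicate 1.

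The 3 further subunits were Rela, Nfkb1 and Rel. Rela, the main activating subunit, rose by 0.26, 0.41, 0.33 and 0.37 (SE 0.05 each) in the 4 comparisons in the order above. Nfkb1, which encodes the precursor of its usual partner, rose by 0.29, 0.39, 0.26 and 0.28 (SE 0.07 each), and Rel rose with WS1442 at 6 h by 0.70 ± 0.17. Among the 9 further inhibitors, Tnip1, which binds the Tnfaip3 protein, rose in all 4 comparisons, by 0.30, 0.41, 0.20 and 0.23. Nfkbie, another IκB, rose by 0.51, 0.76 and 0.67 with WS1442 at 6 h and with MeOH eluate at 6 h and 24 h. Bcl3, a nuclear IκB protein, rose with MeOH eluate at 6 h by 0.60 ± 0.08, and Nfkbiz, another such protein, fell by 0.79 with MeOH eluate at 24 h.

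Of 9 ligands, none passed with WS1442 at 6 h, and Tnf, Ltb and Il1a rose with MeOH eluate at 6 h by 0.70, 0.39 and 0.35. At 24 h Tnfsf13b, a B cell survival factor, was the only ligand to pass, with a rise of 0.82 with WS1442 and 0.70 with MeOH eluate. It was dim, with a DMSO mean of 3.69 at 24 h, where 1 of 2 samples was well above background. Of 9 receptors, 2, 4, 2 and 2 rose and 1, 1, 3 and 3 fell in the 4 comparisons. Tnfrsf12a, the receptor of the cytokine TWEAK, rose by 0.64 with MeOH eluate at 6 h and by 0.80 and 1.41 with WS1442 and MeOH eluate at 24 h. Tnfrsf1b, a TNF receptor, rose in all 4 comparisons, by 0.43, 0.47, 0.41 and 0.64. Tnfrsf1a, the other TNF receptor, rose at 6 h by 0.33 and 0.26 and fell at 24 h by 0.56 and 0.41. Cd40 fell in all 4, by 0.63, 0.77, 0.32 and 0.44. Among 18 adaptors and kinases, 4, 6, 3 and 4 rose and 0, 1, 1 and 1 fell. Of these, Myd88, which carries signals of Toll-like and interleukin receptors, rose in all 4 comparisons, by 0.37, 0.47, 0.33 and 0.38.

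Of 19 inflammatory targets, 2, 7, 7 and 5 rose and 0, 1, 1 and 2 fell. Csf1, a growth factor of macrophages, rose in all 4 comparisons, by 0.44, 1.09, 0.63 and 0.85. The chemokine genes Cxcl1 and Cxcl10 rose by 1.32 and 1.48 with MeOH eluate at 6 h, by 0.53 and 0.56 with WS1442 at 24 h and by 0.80 and 0.71 with MeOH eluate at 24 h. Ccl20, a further chemokine, rose by 1.57 with MeOH eluate at 6 h and by 0.93 with WS1442 at 24 h. Ptgs2, the inducible enzyme of prostaglandin synthesis, rose at 24 h by 1.69 ± 0.29 with WS1442 and 2.00 ± 0.29 with MeOH eluate. Only 1 of its 2 DMSO samples of 24 h was well above background, and their mean was 3.81 with an SD of 1.02. Without DMSO 24 h replicate 1 the differences were 0.96 and 1.28, and without replicate 2 they were 2.41 and 2.73. At 6 h its differences of 0.88 and 0.80 did not pass (adjusted p of 0.1 and 0.0764), and neither did the change with time (adjusted p of 0.224 and 0.0975). Tnfaip2 fell at 24 h by 0.87 and 1.19, and Cd83 by 0.82 with MeOH eluate. Irf1, which fell with MeOH eluate at 6 h by 0.40, was named because it was the 1 gene counted, after its value was seen.

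**Figure D5:**
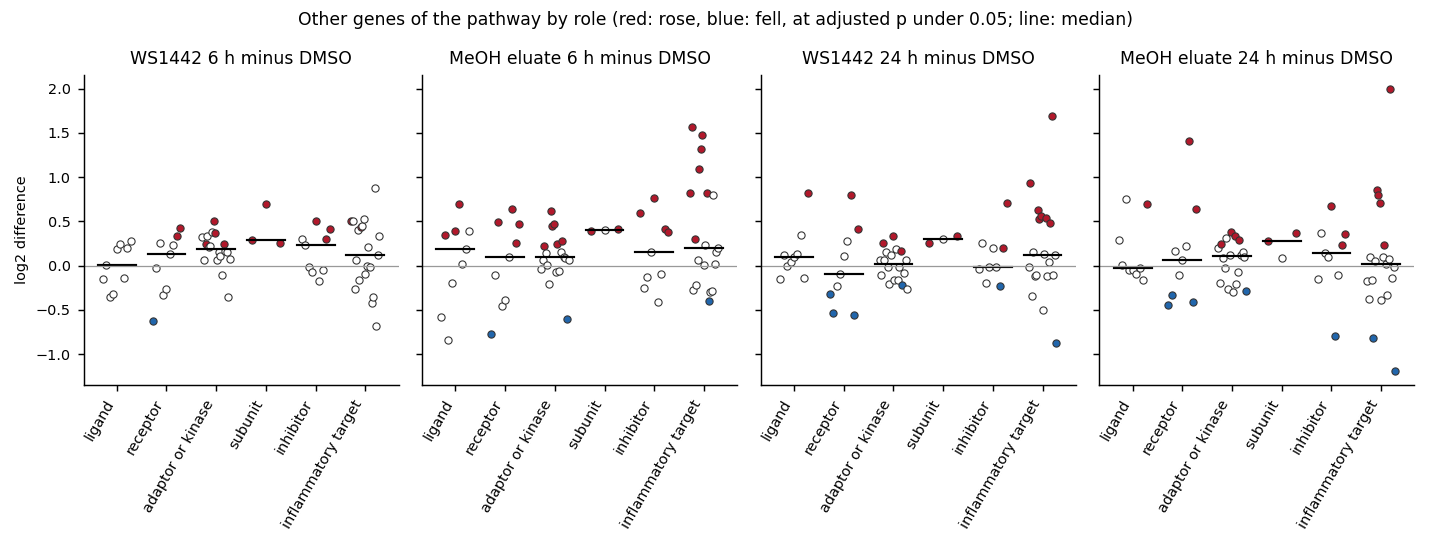
Log2 difference from DMSO (vertical axis) of the 67 further genes of the pathway by role (horizontal axis) in the 4 comparisons. Points are genes, red where they rose and blue where they fell at an adjusted p under 0.05, and lines are medians. Tested subunits lie above 0 in every comparison, and the highest point, at 2.00, is Ptgs2 with MeOH eluate at 24 h, where 1 of 2 DMSO samples was well above background.

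Ccl2 had the smallest adjusted p of the 10 genes, and the genes whose signal followed it most closely over the 16 arrays, after subtraction of the mean of each time point, were Csf1 and Cxcl1 (r = 0.978 for each), Abhd5 (r = 0.974), Sprr1a (r = 0.971) and Maf (r = 0.97), among 20628 candidates. These correlations describe the arrays, which share the slide and the normalization of each time point, and most of the variation is that between groups.

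Markers of cell types were read beside these results. The signals are of whole cultures, in which a change in the number of cells of a type and a change in RNA per cell cannot be told apart. Of 6 genes of pluripotent cells, 0 rose in any comparison, and 1 fell with MeOH eluate at 6 h and 1 with WS1442 at 24 h. Their median log2 differences from DMSO were -0.06 and -0.34 at 6 h and -0.03 and 0.12 at 24 h, WS1442 first. Pou5f1, the brightest of them, had group means between 12.84 and 13.71. Between DMSO and MeOH eluate at 6 h the mean of Nanog went from 6.29 to 5.34, and that of Klf4 from 8.79 to 9.07. Of the 6 cardiomyocyte genes, Tnnt2, Actc1, Myl7 and Ryr2 were well above background on all 16 arrays, Myh6 on 3 and Myh7 on 0. Of the 4 that could be tested, 1 rose and 0 fell with each treatment at 6 h, and 0 rose and 2 fell with each at 24 h. Group means of Actc1, the brightest, lay between 13.68 and 14.4. Those of Myl7 were 7.83, 8.44 and 8.88 at 6 h and 9.51, 8.35 and 7.49 at 24 h, in the order DMSO, WS1442, MeOH eluate. Of 6 endothelial genes 5 could be tested. None rose, and only 1 fell, with MeOH eluate at 24 h. Of 8 macrophage and blood genes Lyz2 was well above background on 0 arrays and Adgre1 on 2, and 6 could be tested. The log2 of the summed signal of all 8 was 9.06 to 9.28 with DMSO, 9.61 to 9.68 with WS1442 and 9.64 to 9.80 with MeOH eluate at 24 h. At 6 h it was 9.71 to 9.79, 9.68 to 9.78 and 9.90 to 9.95. In each of the 4 comparisons 1 of the 6 genes rose and 0 fell. The mean of Ptprc, a gene of all leukocytes, went from 6.40 with DMSO to 6.28 and 5.90 at 24 h, and that of Cd68 from 8.07 to 8.87 and 8.99. Cy3 incorporation, in pmol per µg of cRNA, was 25.8 to 26.1 with DMSO, 31.8 to 32.8 with WS1442 and 27.1 to 30.3 with MeOH eluate at 24 h, and RNA integrity numbers lay between 8.6 and 10. The log2 of the summed signal of 6 fibroblast genes was 10.78 to 10.94 with DMSO, 9.86 to 10.11 with WS1442 and 9.75 to 9.95 with MeOH eluate at 24 h. Col3a1 and Lum were well above background on 0 arrays, and 4 could be tested, of which 0 rose and 2 and 3 fell at 24 h. The brightest, Col1a1, had means of 10.49, 9.39 and 9.36 at 24 h. For 9 genes of mesoderm and cardiac progenitors the log2 of the summed signal was 11.76 to 11.80, 11.19 to 11.25 and 10.55 to 10.72 at 6 h, and 11.58 to 11.59, 11.19 to 11.29 and 10.68 to 10.79 at 24 h. Bright genes weigh most in such a sum, and the brightest here, Mixl1, had means of 10.92, 9.93 and 8.53 at 6 h. The means of Mesp1, Isl1 and Mef2c were higher with both treatments than with DMSO at 6 h. In the 4 comparisons with DMSO 0, 1, 1 and 0 of the 9 genes rose and 2, 3, 3 and 5 fell. The part of these differences in the results was not tested.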

How the data were processed

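Labelled cRNA of 16 samples in 6 groups was hybridised to 1-colour Agilent mouse arrays. As deposited by the authors, the scanner intensity of every spot was corrected for background within its array (Feature Extraction 11.5.1.1) and not normalized between arrays. A second table deposited by the authors holds quantile normalized signal of the same arrays. Its values, taken to log2, differed from those used here by at most 0.03 over the kept probes of the members.

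Intensities were taken to log2 and quantile normalized (limma 3.58.1, R 4.3.3, Python 3.11.15), and non-uniform spots were set missing. Probes were kept if all arrays of some group were well above background, and the brightest kept probe stood for its gene. A model of 6 group means was fitted over 30973 genes with limma (eBayes with trend), with Benjamini-Hochberg adjustment over all genes tested. A total of 80 tests concerned the members, in 8 comparisons. Arrays carry no counts, so the number of arrays limits precision. The procedure was tested on simulated data. Other genes are named where they passed the test, at most the 5 of smallest adjusted p for each role. The members and gene lists were chosen with earlier results of these data known. Alternatives covered scaling, background correction, filter, choice of probe, source of values, test, blocks and each replicate left out.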

Additional observations from a re-analysis of the deposited data

Results flagged for a closer look

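The effect of a treatment differed between 6 h and 24 h for 7 results, by limma's test of the difference of differences. With MeOH eluate the log2 effect changed by -1.07 for Ccl2, -0.65 for Icam1, -0.65 for Nfkbia and 0.76 for Traf1. With WS1442 it changed by -0.43 for Nfkbia, -0.36 for Relb and 0.73 for Traf1. The changes of Icam1 and Nfkbia with MeOH eluate passed under every alternative that was run, with highest adjusted p-values of 0.00526 and 0.0166. That of Ccl2 did not pass without DMSO 6 h replicate 1 (-1.03, adjusted p of 0.056) or DMSO 24 h replicate 1 (-0.86, adjusted p of 0.0667).

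The other 4 rested on more of the samples. The change of Nfkbia with WS1442 did not pass without DMSO 6 h replicate 1 or 2, DMSO 24 h replicate 1 or WS1442 24 h replicate 3 (adjusted p of 0.0653, 0.0818, 0.108 and 0.0621). That of Traf1 with WS1442 did not pass without DMSO 6 h replicate 1 or 2, WS1442 6 h replicate 2, DMSO 24 h replicate 1 or WS1442 24 h replicate 1 or 3 (adjusted p of 0.0831, 0.0826, 0.0508, 0.116, 0.056 and 0.0624). With MeOH eluate, Traf1 did not pass without DMSO 6 h replicate 1 or 2, MeOH eluate 6 h replicate 1 or 3, DMSO 24 h replicate 1 or MeOH eluate 24 h replicate 1 or 3 (adjusted p of 0.0869, 0.0901, 0.0756, 0.0644, 0.113, 0.0704 and 0.0711). Relb with WS1442 did not pass in 11 of the 16 leave-one-out fits, with adjusted p-values up to 0.138, and its change was -0.15 (adjusted p of 0.491) when its probes were averaged. Neither change of Traf1 passed with scaling to the 75th percentile (adjusted p of 0.0528 with WS1442 and 0.0779 with MeOH eluate) or with the replicate number as a block (0.0536 and 0.0612). Relb did not pass with that block, a normexp correction or no filter on dim probes (adjusted p of 0.0679, 0.0626 and 0.0524). With a normexp correction the changes of Traf1 were 0.19 with WS1442 and 0.22 with MeOH eluate, that of Ccl2 with MeOH eluate was -0.61, and only Ccl2 passed.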

How the results depend on the processing

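No called result of the 10 genes changed sign under any alternative run. Of 36 such results, 4 passed under every alternative (Traf1 with MeOH eluate at 24 h, Nfkbia between the treatments at 6 h, and Nfkbia and Icam1 in the change with time of MeOH eluate), 22 were lost only under the methods' t-test and 10 under another alternative. The methods' t-test, with Benjamini-Hochberg adjustment, called 0 and 0 of the 10 genes at 6 h and 0 and 1 at 24 h (WS1442 first, then MeOH eluate). Of all genes it called 0 and 7 of 30963 at 6 h, and 11 of 30971 and 318 of 30969 at 24 h. Between the treatments it called 2 and 0 of the 10 genes at 6 h and 24 h, against 44 and 209 of 30970 genes. It called 0 of the 67 other pathway genes in each comparison with DMSO. At the methods' unadjusted threshold, a p under 0.05, it called 7, 8, 7 and 4 of the 10 genes with DMSO as reference. The counts there were 22, 33, 28 and 27 for the other pathway genes, and 4023, 7546, 8505 and 7113 for all genes. Leaving out each sample in turn gave 0 to 5 members for WS1442 at 6 h, 7 to 8 for MeOH eluate at 6 h, 5 to 6 for WS1442 at 24 h and 4 to 5 for MeOH eluate at 24 h. It gave 6 to 7 and 3 to 4 between the treatments at 6 h and 24 h, and 0 to 4 and 2 to 4 in the change with time for WS1442 and MeOH eluate. For the other pathway genes the ranges were 2 to 21, 16 to 30, 15 to 24 and 17 to 24. Where a DMSO group was left with 1 sample, that sample was assumed to vary like the other groups. With normexp correction 1 member passed in the change of the WS1442 effect with time. A fit of each time point alone called 6 other pathway genes for WS1442 at 6 h. Samples with the same replicate number had a median correlation of 0.00862 in their deviations from the group means (-0.233 to 0.302 in 36 pairs). It was over 0.1 in 6 pairs and highest for replicate 1 of WS1442 and MeOH eluate at 6 h. With the replicate number as a block, 1 member passed in the change of the WS1442 effect with time, and the other counts stayed within 1.5 times of those without it. Scaling to the 75th percentile moved the median of all genes by at most 0.03. The fit within the time point and the methods' t-test give no change with time. Dim probes, such as that of Nfkbid, limit what can be detected.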
